A study of Mus musculus with 8 samples.

Results

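The 26S proteasome is the machine that degrades ubiquitin-tagged proteins, and most of its subunits are named with Psm symbols. Its genes were taken here as every gene whose platform symbol is Psma, Psmb, Psmc, Psmd, Psme, Psmf or Psmg followed by a number, whatever its level or change. The array held 43 such genes on 64 probes, of 16593 genes and 25697 probes in all. Of these, 41 genes on 58 probes passed the detection filter, a detection p-value under 0.05 on at least 4 of the 8 arrays, among 8830 genes on 12790 probes. Psma1 and Psma6, both alpha-ring subunits, were detected on no array. The probe of Psma1 read 111 to 122 in the knockout arrays and 126 to 142 in the wildtype arrays as raw intensity, and that of Psma6 read 117 to 139 in knockout and 131 to 153 in wildtype. These readings are at the level of the array background and give no level for either gene.

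RNA came from V6.5 cells, a mouse embryonic stem cell line, that carried either GRHL2 knockout (4 clones, KO 1 to KO 4) or GRHL2 wildtype (4 subclones, WT 1 to WT 4). The medium of both groups was Knockout DMEM that held 15% FBS, and both became epiblast-like cells by loss of LIF and the 2i inhibitors of GSK3 and MEK for 3 days. Each clone or subclone was measured on 1 Illumina bead array, so the spread within a group mixes clone, culture and hybridization, and knockout clones are compared with subclones of the V6.5 line. GRHL2 is a grainyhead-family transcription factor of epithelia, and the comparison asks what its loss changes at this stage of pluripotency.

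Grhl2 read 7.92, 7.86, 7.06 and 7.99 in KO 1 to KO 4, against 9.62, 8.72, 8.16 and 8.87 in WT 1 to WT 4, as log2 normalized intensity. All 4 knockout arrays lay below all 4 wildtype arrays, at 45.6% of the wildtype level (log2 change -1.13, SE 0.30, limma adjusted p = 0.0369), a call lost in 6 of 8 fits that left out 1 array. Whether its probe lies inside the deletion is not stated in the labels or files, so the remaining signal checks nothing more. All 10 listed epiblast-like markers were detected, among them Pou5f1, Fgf5 and Dnmt3b, and Pou3f1 (0.88) and Utf1 (0.46, but -0.20 with no normalization between arrays) were higher in knockout. Of 5 detected naive pluripotency markers none passed the threshold. The listed fibroblast genes Col1a1, Col1a2, Col3a1, Lum and Postn, the leukocyte genes Ptprc, Lyz2, Tyrobp and Fcer1g and the endoderm genes Afp, Foxa2 and Gata4 were detected on no array. The fibroblast genes Thy1 and Dcn, the leukocyte genes Coro1a, Laptm5 and Cd74 and the endoderm gene Dab2 passed the detection filter. Their changes ran from -0.31 in Cd74 to 0.51 in Laptm5, none past the threshold. The other listed genes were detected on some arrays but did not pass the filter. These were S100a4 of the fibroblast list, Cd52 of the leukocyte list and Gata6, Sox17, Sox7 and Pdgfra of the endoderm list. The summed normalized intensity of the fibroblast probes was 602 to 942 in knockout and 580 to 710 in wildtype, that of the leukocyte probes 1019 to 1199 and 891 to 1146, and that of the endoderm probes 753 to 1029 and 832 to 1160. Arrays of the knockout group were dimmer before normalization, with a mean intensity of 508 ± 51.5 against 703 ± 32.4 in wildtype (SD, n = 4 each), or 72.3% of wildtype, and an exact two-sided permutation test gave the smallest p that 4 arrays against 4 allow, 0.0286. Brightness before normalization and genotype separate the arrays in the same way, so their effects cannot be told apart. Genes of some chromosomes stood apart on single arrays, relative to the other arrays of their group. The 492 tested genes of chromosome 8 had a median shift of -0.43 on KO 1, and the 428 of chromosome 6 one of 0.40 on WT 3. Smaller shifts included -0.16 for chromosome 6 on KO 1 and 0.15 for the 716 genes of chromosome 2 on WT 4. No proteasome gene tested lies on chromosome 6, and Psmb10 and Psmd7 lie on chromosome 8. Psma7, Psmb7, Psmc3, Psmd5 and Psmd14 lie on chromosome 2. WT 4 was the highest wildtype array in each of these except Psmd14. What part of their changes goes with that shift was not tested.

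The proteasome has a 20S core, a barrel of alpha and beta rings whose beta subunits cut proteins, and a 19S cap, in which a ring of ATPases unfolds substrates and non-ATPase subunits bind and remove ubiquitin. Dedicated chaperones build the rings and then leave. Interferon gamma induces replacement beta subunits that form the immunoproteasome, together with the PA28 activator, and these favour peptides for class I antigen presentation. Pluripotent stem cells are known for high proteasome activity, and embryonic stem cells for little interferon response.

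The proteasome genes did not move together. Of the 41 genes, 3 rose and 3 fell at a limma adjusted p under 0.05, which is 14.6% of them, against 13.7% of all 8830 genes tested (6.55% higher and 7.17% lower). Their median log2 change was -0.02, against 0.01 over all genes, with 20 changes above 0 and 21 below. The median size of a change regardless of sign was 0.19, against 0.23 over all genes. In 13 genes, 31.7%, the 4 knockout arrays did not overlap the 4 wildtype arrays, against 23.2% of all genes, and 8 of these were higher and 5 lower in knockout. Changes of at least 1.5-fold were seen in 3 genes, 7.32% against 10.4% of all genes, and only Psmd6 passed 2-fold, a size that depended on the background correction.

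The counts moved with how the arrays were scaled. With median scaling 16 members fell and 0 rose, while 40.8% of all genes passed (133 higher and 3474 lower). With no normalization between arrays 28 members fell and 0 rose, while 65.4% of all genes passed (36 higher and 5735 lower). The median of the members was 0.03 above that of all genes under both, and 0.03 below it as reported. With array brightness as a covariate, 0 of the 41 members and 0.181% of all genes passed.

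For most members the arrays bounded the change of the brightest probe closely, given quantile normalization. The 95% interval of the change lay within 1.5-fold either way in 30 of 41 genes, 73.2%, against 51.6% of all genes. This held for 29 of the 35 genes that did not pass the threshold, whose changes ran from -0.37 in Psma3 to 0.46 in Psme2. The other 6 of these, with wider intervals, were Psma3, Psmb8, Psmc6, Psme1, Psme2 and Psme3. Second probes of Psmd9 (0.71) and Psmd12 (-0.68) changed by more than 1.5-fold, though the brightest probes of both genes had intervals within it. With median scaling the median change of the members was -0.31. The median SD within a group was 0.11 in knockout and 0.12 in wildtype, against 0.19 in both over all genes. In bulk RNA, fewer cells making a transcript and less of it per cell cannot be told apart.

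**Figure D1:**
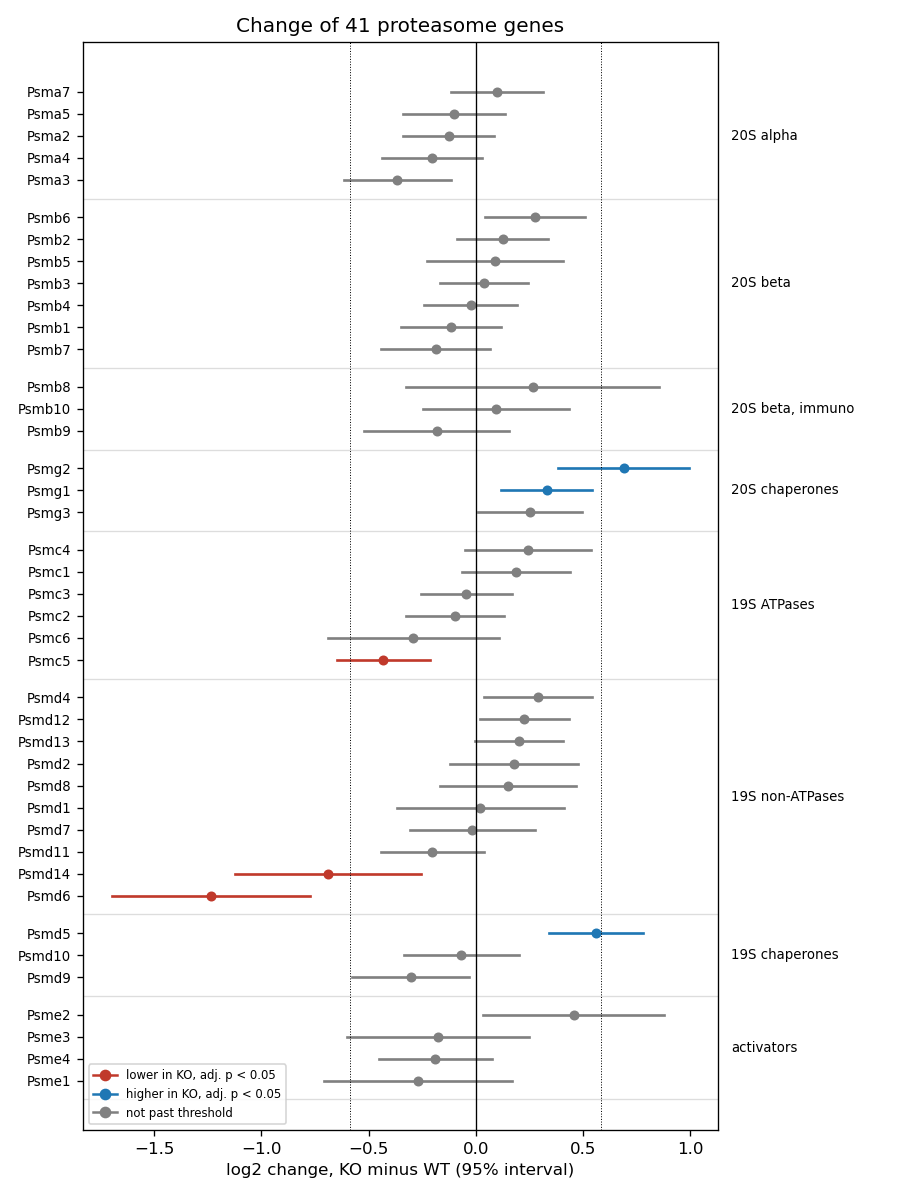
Log2 change of each of the 41 detected proteasome genes, knockout minus wildtype, with its 95% interval, grouped by role; dotted lines mark 1.5-fold either way. Red marks the 3 genes that fell, blue the 3 that rose and grey the 35 that did not pass an adjusted p of 0.05; Psmd6 at -1.24 lies furthest from 0, and the 7 constitutive beta subunits all keep their intervals inside the dotted lines.

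The results turned on 6 genes: Psmd6, Psmd14 and Psmc5 of the 19S cap, which fell, and the assembly chaperones Psmd5, Psmg1 and Psmg2, which rose. Promoter windows of RefSeq (mouse build GRCm38.p6, 250 bases before to 50 after the gene start, written along the gene's strand) are shown for Psmd6, Psmd14 and Psmd5, the 2 genes with the largest falls and the chaperone with the lowest adjusted p. Capitals mark the GC box GGGCGG and the NF-Y box CCAAT on either strand; in Psmd14 a CCAAT and its reverse overlap, so that one run of capitals holds both. Psmd6 lies at chr14:14120896-14121195 on the minus strand, Psmd14 at chr2:61711444-61711743 on the plus strand, and Psmd5 at chr2:34870913-34871212 on the minus strand.
Psmd6: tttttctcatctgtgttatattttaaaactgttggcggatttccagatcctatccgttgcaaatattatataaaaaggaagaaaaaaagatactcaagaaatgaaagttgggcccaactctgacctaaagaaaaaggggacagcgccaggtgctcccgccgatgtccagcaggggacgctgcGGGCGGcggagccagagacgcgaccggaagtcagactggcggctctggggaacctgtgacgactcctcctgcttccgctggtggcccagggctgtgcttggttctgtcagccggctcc
Psmd14: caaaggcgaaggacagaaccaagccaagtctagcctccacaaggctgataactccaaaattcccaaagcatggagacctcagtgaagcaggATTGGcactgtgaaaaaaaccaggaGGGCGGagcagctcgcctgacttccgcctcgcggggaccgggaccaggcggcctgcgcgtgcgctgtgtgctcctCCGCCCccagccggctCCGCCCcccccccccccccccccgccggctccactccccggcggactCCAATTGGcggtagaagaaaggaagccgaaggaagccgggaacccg
Psmd5: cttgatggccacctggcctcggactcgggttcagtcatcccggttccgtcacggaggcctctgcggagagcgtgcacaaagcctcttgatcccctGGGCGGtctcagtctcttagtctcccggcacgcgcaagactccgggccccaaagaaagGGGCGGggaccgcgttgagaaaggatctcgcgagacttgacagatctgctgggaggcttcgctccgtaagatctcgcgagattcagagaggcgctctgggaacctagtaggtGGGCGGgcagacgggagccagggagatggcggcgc
The Psmd6 window had 1 GC box and no CCAAT, the Psmd5 window 3 GC boxes and no CCAAT, and the Psmd14 window 3 of each.

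Of the 43 genes, 37 had such a window, and 32851 windows of all genes served as comparison. The GC box was found in 22 of the 37 windows, 59.5%, against 35.7% of all windows, and the median GC content was 57.3% against 52.7%. CCAAT was found in 13 windows, 35.1% against 37.4%. The core of the antioxidant response element that NFE2L1 and NFE2L2 bind, TGACNNNGC, was found in 6 windows (Psmb5, Psmb6, Psmc6, Psmd9, Psmd12 and Psme4), 16.2% against 12.4%. A grainyhead core, AACCNGTT, was found in 0 of the 37 windows and in 2.09% of all windows. All motifs were read on both strands, and a match or its absence says only which letters these windows hold.

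The alpha ring, which gates the core, showed no change past the threshold in its 5 detected genes, with a median change of -0.13. Psma3 came nearest, with log2 intensities of 13.36, 13.31, 13.19 and 13.07 in KO 1 to KO 4 and 13.59, 13.74, 13.44 and 13.62 in WT 1 to WT 4. All its knockout arrays lay below all wildtype arrays (-0.37, SE 0.11, limma adjusted p = 0.0562). It passed under 10 of 22 alternatives, among them no background correction, array weights and leaving out WT 3, and in the authors' deposited table (-0.40, adjusted p = 0.0127). Psma2 (-0.13) and Psma4 (-0.20) were also without overlap between groups, Psma5 read -0.10 and Psma7 0.10, and these 4 had adjusted p-values of 0.203 to 0.541.

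The 7 constitutive beta subunits, the cutting subunits Psmb5, Psmb6 and Psmb7 and their structural neighbours Psmb1 to Psmb4, did not pass the threshold, and all 7 intervals stayed within 1.5-fold. Their median change was 0.04. Psmb6, the caspase-like site, read 13.25, 13.06, 12.97 and 12.94 in KO 1 to KO 4, against 12.74, 12.84, 12.74 and 12.80 in WT 1 to WT 4. Its groups did not overlap (0.27, SE 0.11, limma adjusted p = 0.105), and it passed without background correction and in the authors' deposited table (adjusted p = 0.0356). Psmb5, the chymotrypsin-like site, read 10.33, 10.13, 9.94 and 9.78 in knockout and 10.19, 9.84, 9.90 and 9.88 in wildtype, with groups that overlapped (0.090, SE 0.14). Psmb7, the trypsin-like site, read 12.98, 12.80, 12.84 and 12.88 in knockout and 13.15, 13.06, 12.82 and 13.20 in wildtype, again with overlap (-0.19, SE 0.11). Its other retained probes changed by 0.060 and 0.083, so no direction is given for this gene. The remaining constitutive subunits, Psmb1 to Psmb4, had changes of -0.12 to 0.13.

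The 3 interferon-inducible beta subunits did not pass the threshold either. Psmb8, which takes the place of Psmb5, read 5.98, 5.56, 4.64 and 5.87 in KO 1 to KO 4, against 5.21, 5.48, 4.99 and 5.31 in WT 1 to WT 4. It was near the detection limit, detected on 3 knockout and 4 wildtype arrays, and its interval ran from -0.32 to 0.85 (change 0.27, SE 0.26, adjusted p = 0.522). Psmb9, which takes the place of Psmb6, read 7.37, 6.75, 6.92 and 6.95 in knockout and 7.16, 7.22, 7.38 and 6.96 in wildtype (-0.18, SE 0.15, adjusted p = 0.432). Psmb10, which takes the place of Psmb7, read 11.58, 11.54, 10.97 and 11.67 in knockout and 11.28, 11.41, 11.32 and 11.36 in wildtype (0.095, SE 0.15, adjusted p = 0.703). The groups overlapped in all 3.

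Each inducible subunit was then set against the constitutive subunit it replaces, as the difference of their log2 values on the same array. Only the change of that difference between groups is read, since levels of different probes cannot be compared. For Psmb8 minus Psmb5 the difference was 0.18 higher in knockout (standard error 0.32, exact two-sided permutation p = 0.571). For Psmb10 minus Psmb7 it was 0.28 higher (standard error 0.17, exact permutation p = 0.143). This value depends on the probes: Psmb7 changed by -0.19 on its brightest probe and by 0.060 and 0.083 on others. Psmb10 changed by 0.095 on its brightest probe and by 0.26 on its other. For Psmb9 minus Psmb6 the difference read -5.88, -6.31, -6.04 and -5.99 in KO 1 to KO 4, against -5.58, -5.62, -5.36 and -5.84 in WT 1 to WT 4. All 4 knockout arrays lay below all 4 wildtype arrays, a change of -0.46 (standard error 0.13, exact permutation p = 0.0286, the smallest possible). Adjusted over the 3 pairs, this p was 0.0857, so that no pair passed 0.05.

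**Figure D2:**
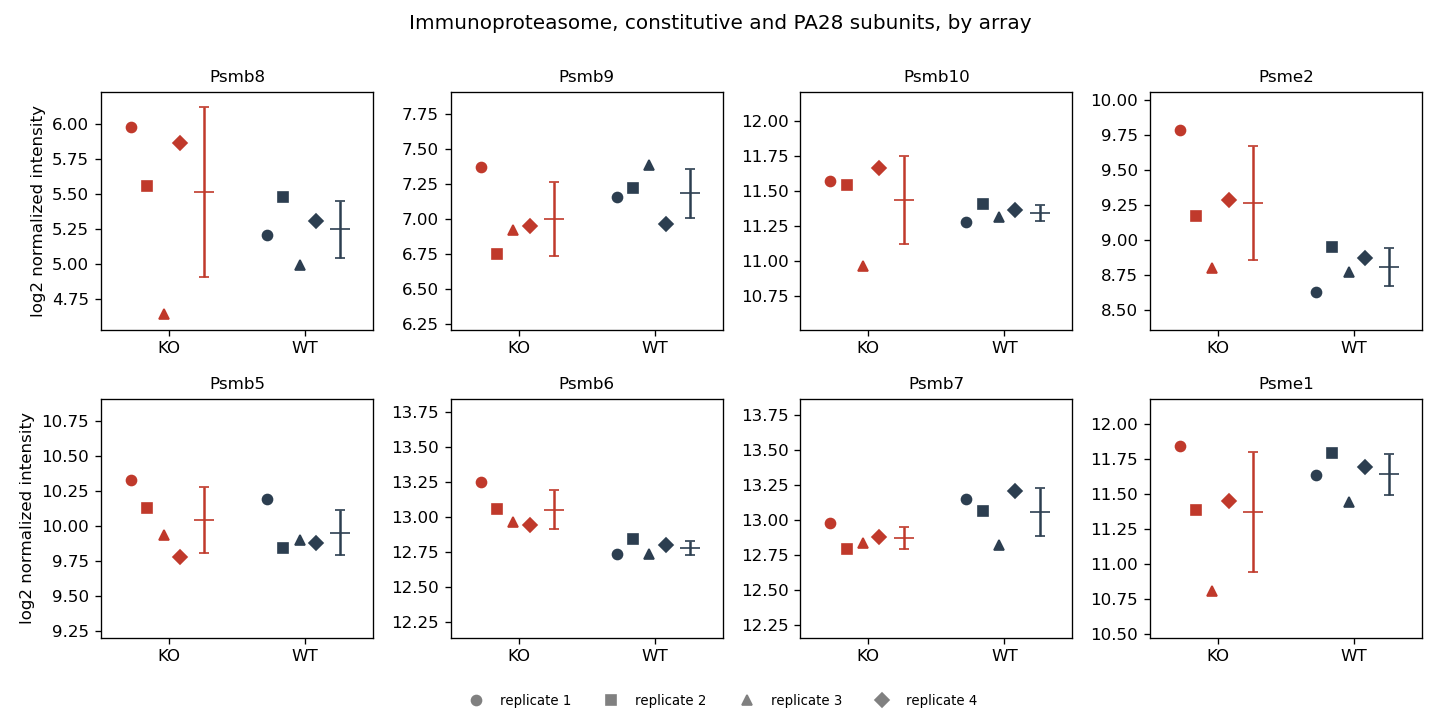
Log2 normalized intensity by array of 3 inducible beta subunits and the activator subunit Psme2 in the top panels, and of Psmb5, Psmb6, Psmb7 and Psme1 below, knockout left and wildtype right, with mean and SD; every panel spans the same range on the log2 axis. The knockout arrays of Psmb8, Psme1 and Psme2 spread over about 1 log2 unit or more (ranges 1.34, 1.04 and 0.99), and the wildtype arrays over 0.48, 0.35 and 0.32.

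The inducible genes spread over a wider range among the knockout clones than the distance between the group means. This also held for Psmb5 (range 0.55, change 0.090) and Psmb6 (range 0.31, change 0.27), but not for Psmb7 (range 0.18, change -0.19). Psme1 and Psme2 encode the alpha and beta subunits of PA28, the interferon-induced activator. Psme2 read 9.79, 9.17, 8.80 and 9.28 in KO 1 to KO 4, against 8.63, 8.95, 8.77 and 8.87 in WT 1 to WT 4 (0.46, SE 0.19, limma adjusted p = 0.129). KO 1 was high and KO 3 lay inside the wildtype range. Psme1 read 11.85, 11.39, 10.81 and 11.45 in knockout and 11.64, 11.79, 11.44 and 11.69 in wildtype (-0.27, SE 0.20, adjusted p = 0.373), with KO 1 highest and KO 3 lowest of all arrays. Its other probe had the same KO extremes, 11.14 in KO 1 and 10.18 in KO 3, and a change of 0.12. Among Psmb8, Psmb9, Psmb10, Psme1 and Psme2, KO 3 was the lowest knockout array in 4 of 5, against 19.5% of the proteasome genes and 23.5% of all genes. KO 1 was the highest in 4 of 5, against 70.7% of the proteasome genes and 34.6% of all genes. The median SD of these 5 genes was 0.41 in knockout and 0.15 in wildtype.

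Some genes of the interferon list and the class I list had this order of clones. KO 3 was the lowest knockout array in 5 of 10 interferon genes and in 3 of 7 class I genes. KO 1 was the highest in 6 of 10 and in 4 of 7. Over all genes these shares were 23.5% and 34.6%. KO 1 was the lowest in 2 of 10 interferon genes and in 2 of 7 class I genes. Of the class I genes, only Tap2 and Tapbp had both KO 1 highest and KO 3 lowest. The 3 genes described next were picked after their values were seen. Irf1, a transcription factor of the interferon response, read 12.18, 11.39, 11.10 and 11.53 in KO 1 to KO 4, against 11.52, 11.75, 11.69 and 11.65 in WT 1 to WT 4. Gbp2, an interferon-induced GTPase, read 11.23, 9.13, 7.52 and 9.52 in knockout and 9.05, 8.82, 8.39 and 9.11 in wildtype. Tap2, a chain of the peptide transporter into the endoplasmic reticulum, read 7.96, 7.20, 6.52 and 7.35 in knockout and 6.14, 7.04, 6.67 and 6.86 in wildtype. In all 3, KO 1 was the highest and KO 3 the lowest of the knockout arrays, and none passed the threshold. B2m, the light chain of class I molecules, ran the other way among the clones, lowest in KO 1 and highest in KO 3, and Tap1, Calr and Pdia3 were not lowest in KO 3.

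Of the inducible genes with a promoter window, Psme1 alone held the interferon response core, which is GAAA, any 2 bases and GAAA, at bases 10 to 19 after the gene start. It is shown with its flanks (GRCm38.p6, chr14:55578493-55578522, plus strand), with capitals for the core, which reads on the reverse strand.
Psme1: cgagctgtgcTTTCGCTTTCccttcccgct
The same core was found in the windows of Psmb3, Psmd4 and Psmd9, so in 4 of 37 windows, 10.8%, against 3.44% of all windows. Psmb3 (0.040), Psmd4 (0.29) and Psmd9 (-0.30) did not pass the threshold.

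Of the other activators, Psme3, the nuclear PA28 gamma, changed by -0.18 (SE 0.19), and Psme4, the PA200 cap, by -0.19 (SE 0.12), with adjusted p-values of 0.556 and 0.297. Unlike the inducible genes, Psme3 spread little among the knockout arrays (range 0.21) and more among the wildtype arrays (range 0.98).

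Of the 6 ATPases that form the unfolding ring, 1 fell and none rose, with a median change of -0.07. Psmc5 (Rpt6) read 11.86, 11.87, 11.72 and 11.69 in KO 1 to KO 4, against 12.26, 12.24, 12.13 and 12.25 in WT 1 to WT 4. All knockout arrays lay below all wildtype arrays, at 74.1% of the wildtype level (-0.43, SE 0.097, limma adjusted p = 0.0218). The gene's other probe went the other way by less than its error, 11.98 ± 0.13 in knockout and 11.88 ± 0.11 in wildtype (SD, n = 4 each; change 0.095, SE 0.11, adjusted p = 0.604 over all retained probes), so the fall rests on 1 of 2 probes. The call was also lost without KO 3, KO 4, WT 2 or WT 4 (adjusted p up to 0.0616). The other 5 ATPases ranged from -0.29 in Psmc6 to 0.24 in Psmc4, with adjusted p-values of 0.232 to 0.784.

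Of 11 listed non-ATPase subunits of the cap, 10 were on the array and tested. Of these 10, 2 fell and none rose, with a median change of 0.08. Psmd6, the lid subunit Rpn7, read 6.48, 6.40, 6.25 and 6.12 in KO 1 to KO 4, against 8.01, 7.78, 6.95 and 7.47 in WT 1 to WT 4. All knockout arrays lay below all wildtype arrays, at 42.4% of the wildtype level (-1.24, SE 0.21, 95% interval -1.70 to -0.77, limma adjusted p = 0.00887). Its raw intensities were 193, 174, 174 and 155 in knockout and 453, 376, 263 and 368 in wildtype, so the knockout arrays sat close to background. Its size moved with the background correction: the change was -0.63 without it, -0.97 with an offset of 50 and -0.64 in the authors' deposited table, each past the threshold. A second probe of Psmd6 fell too, 5.07 ± 0.32 in knockout against 5.81 ± 0.34 in wildtype (SD, n = 4 each; change -0.73, SE 0.20, adjusted p = 0.042 over all retained probes), detected on 1 knockout and 4 wildtype arrays. The fall kept an adjusted p of at most 0.0300 with any 1 array left out.

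Psmd14, the lid's deubiquitinase Rpn11, which removes ubiquitin chains as substrates enter, read 10.30, 10.17, 9.90 and 9.63 in KO 1 to KO 4, against 10.90, 10.79, 10.20 and 10.87 in WT 1 to WT 4. It was at 62.0% of the wildtype level (-0.69, SE 0.19, limma adjusted p = 0.0441), but WT 3 lay inside the knockout range. The call was lost in 6 of 8 fits that left out 1 array (adjusted p up to 0.109). The remaining 8 subunits did not pass the threshold. Psmd4 (Rpn10, a ubiquitin receptor, 0.29), Psmd12 (0.22) and Psmd13 (0.20) were higher without overlap between groups on their brightest probes, at adjusted p-values of 0.113, 0.129 and 0.160. A second probe of Psmd12, detected on all 8 arrays, went the other way, 7.66 ± 0.48 in knockout against 8.33 ± 0.48 in wildtype (SD, n = 4 each; change -0.68, SE 0.28, adjusted p = 0.131 over all retained probes), so no direction is given for this gene. Psmd1 and Psmd2, the scaffold subunits of the base, read 0.020 and 0.18, and Psmd8 and Psmd11 read 0.15 and -0.20. Second retained probes of Psmd2 (-0.011) and Psmd11 (0.15) differed in sign from the brightest, so no direction is given for either gene.

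Psmd7 (Rpn8, the partner of Rpn11) depended on the probe. Its brighter probe read 12.06, 12.50, 12.50 and 12.49 in KO 1 to KO 4, against 12.25, 12.38, 12.50 and 12.49 in WT 1 to WT 4 (-0.02). The other read 11.11, 11.55, 11.39 and 11.70 in knockout and 12.01, 12.02, 11.78 and 11.90 in wildtype, without overlap (-0.49, SE 0.14, adjusted p = 0.047 over all retained probes). Both probes were lowest in KO 1. Psmd7 lies on chromosome 8, and its brighter probe was shifted by -0.44 on KO 1, close to the median of that chromosome, while Psmb10 of the same chromosome was not low there.

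**Figure D3:**
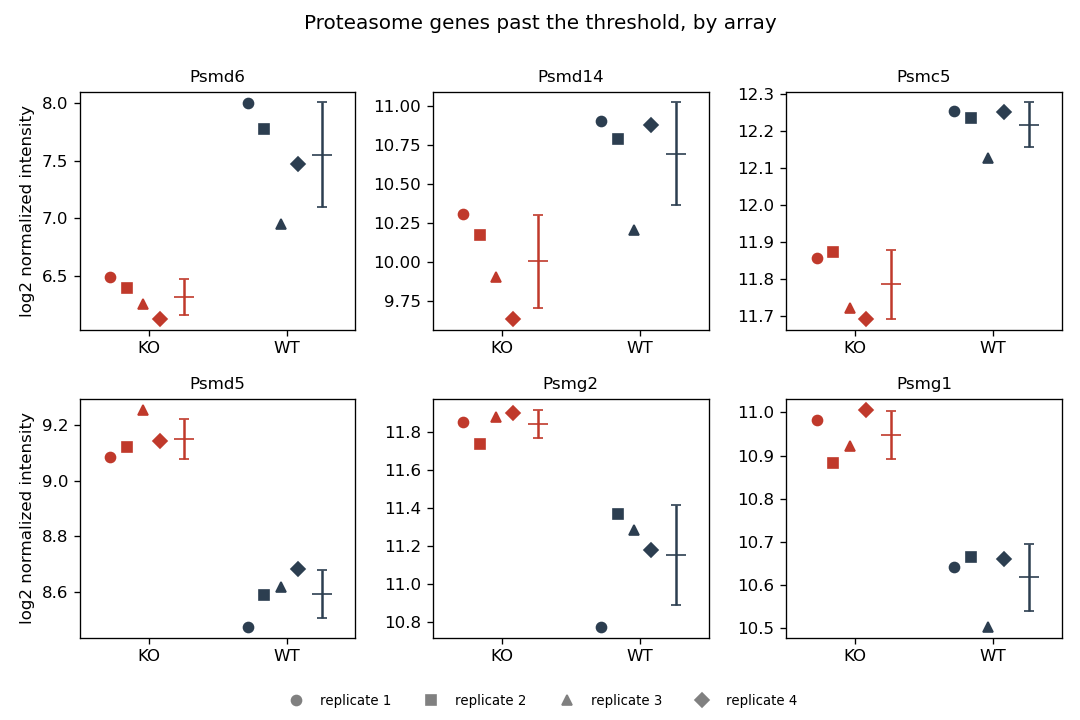
Log2 normalized intensity by array of the 6 proteasome genes past the threshold, knockout left and wildtype right, with mean and SD. Psmd6, Psmc5, Psmd5, Psmg1 and Psmg2 show no overlap between groups, while WT 3 at 10.20 in Psmd14 lies among the knockout arrays.

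The assembly chaperones held all 3 rises. Psmd5 (S5b), which holds the ATPase Psmc2 (Rpt1) during base assembly, read 9.08, 9.12, 9.25 and 9.14 in KO 1 to KO 4, against 8.47, 8.59, 8.62 and 8.68 in WT 1 to WT 4. All knockout arrays lay above all wildtype arrays, 1.48-fold (0.56, SE 0.098, 95% interval 0.34 to 0.78, limma adjusted p = 0.0101). Its second probe was not detected on any array. The other base chaperones did not pass the threshold, Psmd10 (gankyrin) at -0.07 and Psmd9 (p27) at -0.30 (adjusted p = 0.121). Other retained probes of Psmd10 read 0.069 and -0.23, so its probes differed in sign. The probes of Psmd9 disagreed: the other rose, 6.86 ± 0.26 in knockout against 6.15 ± 0.18 in wildtype (SD, n = 4 each; change 0.71, SE 0.15, adjusted p = 0.019 over all retained probes), so no direction is given for this gene.

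Psmg1, Psmg2 and Psmg3 encode the chaperones PAC1, PAC2 and PAC3 that build the alpha ring, the first 2 as a heterodimer. Psmg2 read 11.85, 11.73, 11.88 and 11.90 in KO 1 to KO 4, against 10.78, 11.37, 11.28 and 11.18 in WT 1 to WT 4. All knockout arrays lay above all wildtype arrays, 1.61-fold (0.69, SE 0.14, limma adjusted p = 0.0149), and WT 1 was low within its group. Its second probe read 0.24 (SE 0.12, adjusted p = 0.213 over all retained probes). Psmg1 read 10.98, 10.88, 10.92 and 11.00 in knockout and 10.64, 10.67, 10.50 and 10.66 in wildtype, again without overlap, 1.26-fold (0.33, SE 0.095, adjusted p = 0.0469). Psmg3 was without overlap too, 9.71 in knockout and 9.45 in wildtype on average, but did not pass (0.25, SE 0.11, adjusted p = 0.139).

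Psmd5 and Psmg2 kept their calls with any 1 array left out (adjusted p at most 0.0344 and 0.0405), and Psmg1 lost its call in all 8 such fits. Over both kinds of chaperone, 3 of 6 genes rose and none fell, with a median change of 0.29, where 6.55% of all genes rose. The lists were chosen with earlier results of these data known, so this share is a description and not a test. The 6 genes include Psmd9, whose probes disagreed, and leave out Pomp, the core's maturation factor under another kind of symbol, which did not pass. Among the 35 other members none rose and 3 fell (8.57%, against 7.17% of all genes), with a median of -0.02. The signs of these rises depend on scaling. With no normalization between arrays, where the median over all genes moved to -0.58, Psmd5 read -0.15, Psmg1 -0.35 and Psmg2 0.050, which is 0.43, 0.23 and 0.63 above that median.

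**Figure D4:**
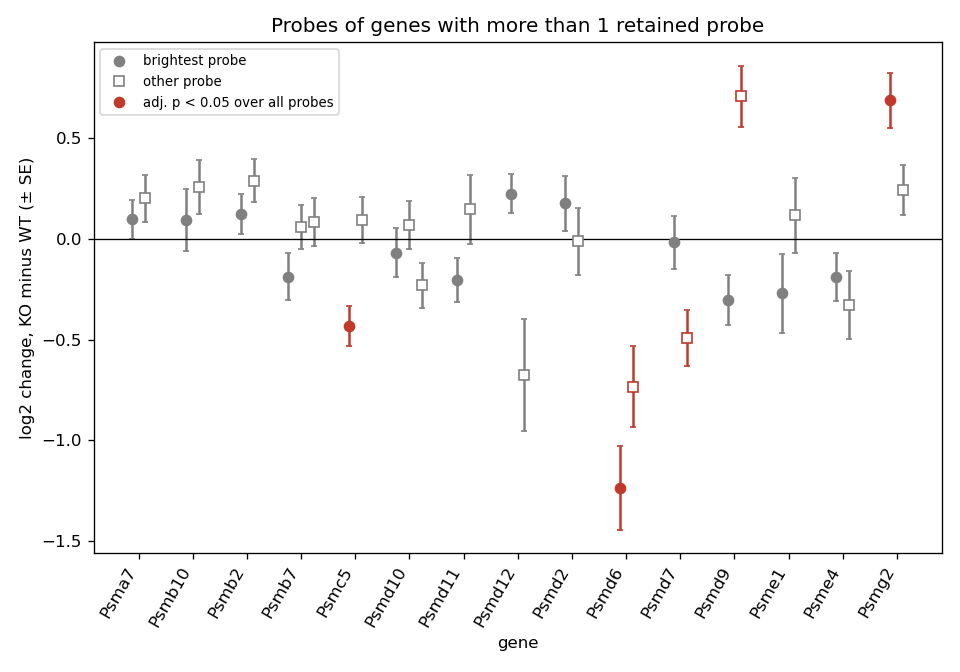
Log2 change with its SE for every retained probe of the 15 proteasome genes with more than 1 retained probe, knockout minus wildtype; circles mark the brightest probe of a gene, squares the others, and red an adjusted p under 0.05 over all 12790 retained probes. Both probes of Psmd6 lie below 0, while those of Psmc5, Psmd9 and Psme1 lie on either side of it.

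Several probes were retained for 15 of the genes, and in 8 of these the probes differed in sign. Tested on its own, 8 of 58 probes passed, 3 higher and 5 lower, which is 13.8%, against 13% of all retained probes. Each intensity was a mean over 21 to 64 beads, with a median standard error of 3.47% of the mean. In the authors' deposited table of the comparison, 11 of the 41 probes that stand for a gene passed, 7 higher and 4 lower, against 18.2% of such probes overall. All 6 genes called here were among them with the same sign.

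KO 1 stood apart over the whole set. It was the highest knockout array in 29 of the 41 proteasome genes. The mean of the 41 log2 values was 11.15 on KO 1 and 10.95 to 10.99 on the other knockout arrays, and 10.95 to 11.09 on the wildtype arrays. Without KO 1, 3 genes fell and 2 rose, Psmg1 losing its call, and without both KO 1 and WT 3, 5 fell and 2 rose.

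Lists of genes that work with the proteasome under other names are read against the 13.7% of all genes that passed. Among 7 partners none passed, and the brightest, Pomp, the maturation factor of the core, read 13.49 ± 0.05 in knockout and 13.33 ± 0.11 in wildtype (SD, n = 4 each), while Sem1, a lid subunit, read 12.35 in both. Of 13 genes of the NFE2L1 and NFE2L2 pathway, which controls proteasome gene transcription under stress, 1 fell and none rose: Mafg, a small Maf partner of these factors (-0.42, SE 0.10, limma adjusted p = 0.0257), a call lost in 5 of 8 fits that left out 1 array (adjusted p up to 0.0712). Of 8 ubiquitin, p97 and shuttle genes 1 fell, Faf2, a p97 adaptor of the endoplasmic reticulum (-0.97, SE 0.27, adjusted p = 0.0440), a call lost in 6 of 8 such fits (adjusted p up to 0.106). The medians of the 3 lists were 0.09, -0.10 and -0.08.

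Of 7 class I antigen processing genes none passed, with a median of -0.22, and the brightest were Pdia3, at 12.08 in knockout and 12.45 in wildtype, and B2m, at 10.05 and 9.93. Of 10 interferon genes 1 rose and 1 fell, with a median of 0.01: Ifngr2, a chain of the interferon gamma receptor (0.81, SE 0.16, limma adjusted p = 0.0144), and Ifit2, an interferon-induced antiviral protein (-1.07, SE 0.22, adjusted p = 0.0162), which was detected on only 2 knockout arrays. The Ifit2 change was -0.31 without background correction. With the mean of its retained probes Ifngr2 read 0.35 (adjusted p = 0.156), and its call was also lost under median scaling (0.34). The COP9 signalosome and the translation factor eIF3 share the architecture of the lid. Of 9 COP9 genes none passed (median 0.00), with Cops3 brightest at 12.93 in knockout and 12.73 in wildtype. Of 9 eIF3 genes Eif3d rose (0.48, adjusted p = 0.0255) and Eif3a fell (-0.66, adjusted p = 0.0280), with a median of 0.11. Leaving out 1 array ended the Eif3d call in 4 of 8 fits and the Eif3a call in 6 of 8, and Eif3d read -0.019 with no normalization between arrays.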

How the data were processed

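Total RNA of 8 epiblast-like cultures, 4 per genotype, was measured on Illumina MouseRef-8 v2.0 arrays. The deposited profile of probes gave, per the file headers, each probe's mean bead intensity, its standard error, the count of beads and a detection p-value. From the values, these intensities had no background subtraction or normalization. The authors' deposited normalized table held log2 intensity, equal to quantile normalization without background correction (largest difference 4.97e-14), and the deposited series values were identical to it. The authors' deposited comparison gave log2 changes, p-values and a moderated score per probe. The submitters' processing notes name limma.

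Intensities were background-corrected from the detection p-values and quantile normalized with neqc (offset 16, limma 3.58.1, R 4.3.3). The brightest retained probe stood for a gene. The genotypes were compared with lmFit and eBayes, two-sided, with Benjamini-Hochberg adjustment over 8830 genes and a threshold of 0.05. Single values were compared by exact permutation over the 70 assignments of arrays. Changes are knockout minus wildtype on the log2 scale, SE is limma's moderated standard error, and values after ± are SDs. The fit was tested on simulated data. P-values measure only the spread between these arrays, whose number limits the precision, and the labels and files give no slide or culture day. No 2 arrays held identical values.

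The members and lists were chosen with earlier results of these data known. All members, Grhl2, up to 6 members past the threshold of each list, or its 2 brightest where none passed, are named; others are named with a remark or as further list members. Symbols came from the platform annotation, and all 64 member probes matched the RefSeq gene table of GRCm38.p6. Alternatives covered background correction, scaling, the authors' tables, the filter, the choice of probe, array weights, variance moderation, brightness, a replicate block and left-out arrays. Testing every retained probe on its own was added after seeing the data.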

Additional observations from a re-analysis of the deposited data

Results flagged for a closer look

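In groups of 4, an array was set apart where its distance to the nearest other array, as a share of the group's range, passed Dixon's 95% critical value. Of 82 such groups (41 genes in 2 genotypes), 7 did, where chance gives about 1 in 20. WT 3 was low in 3 of them: Psmd14 at 10.20 against 10.79 to 10.90 on the other wildtype arrays, Psmc5 at 12.13 against 12.24 to 12.26, and Psmg1 at 10.50 against 10.64 to 10.67. WT 1 was high in Psmb5, at 10.19 against 9.84 to 9.90, and low in Psmc4, at 12.55 against 12.97 to 13.04. WT 4 was high in Psmc2, at 13.59 against 13.48 to 13.49. In knockout, Psmd7 read 12.06 on KO 1 against 12.49 to 12.50 on the other arrays. All values are log2 normalized intensities.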

How the results depend on the processing

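Of 462 recomputed values of 21 results, 346 kept their direction and side of the threshold, or for values without a test and counts stayed close to the reported value. The counts of members higher and lower in knockout, 3 and 3 as reported, were 6 higher without background correction and with the deposited normalized values, 7 higher in the authors' comparison and 5 higher without variance moderation. They were 0 higher and 28 lower with no normalization between arrays, 0 and 16 with median scaling, and 0 and 0 with brightness as a covariate. Without WT 3 and KO 1 together 5 were lower. The median change was -0.55 with no normalization, -0.31 with median scaling and 0.23 with the brightness covariate, and -0.05 to 0.02 with 1 array left out, where 1 to 4 members were lower and 2 higher. Psmb8 minus Psmb5 was -0.0034 without background correction and with the deposited values, -0.047 in the authors' comparison and -0.031 without KO 4 (range -0.031 to 0.43 with 1 array left out). With no normalization Psmd5 read -0.15, Psmg1 -0.35, Eif3d -0.019 and Utf1 -0.20, and with median scaling Psmg1 read -0.12. With the brightness covariate Psmd14 read 0.30 and Faf2 0.37. Apart from the shift of all genes under the scalings, the cause was not tested.

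The replicate numbers did not pair the arrays: deviations of same-numbered arrays correlated at -0.08 to 0.05. A fit with the replicate block called 671 genes, with 2 members higher (Psmd5 and Psmg2) and 1 lower (Psmd6). A slide block was not run, and Ifit2 and Psmb8 had no value where detection on all 8 arrays was asked. Intensity over background limits Psmb8, Psmc6, Psmd6, Psmd9 and Psmd2 most.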
